A study of Mus musculus with 8 samples.

Results

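The expression of 8 genes of the cAMP and DARPP-32 pathway was followed across the cell types of mouse striatum and prefrontal cortex (PFC): Gnal, Gng7, Adcy5, Adcy1, Ppp1r1b, Arpp21, Arpp19 and Ptpn5. The genes were taken by symbol, each as 1 row of the 31053 genes in every count matrix, a rule that uses no measured value, although the genes were picked with earlier results of these data known. The data are single-cell RNA-seq of male mice of a line backcrossed to C57BL/6N, 8 to 10 weeks old according to the labels. The mice were either wild type (WT) littermates or carried 1 CRISPR-Cas9-made frameshift allele of Setd1a in all cells (Setd1a+/-). The allele was made in BDF1 zygotes before the backcross. Setd1a encodes a histone methyltransferase that writes H3K4 methylation, and the frameshift lies just before the sequence of its catalytic SET domain. Each tissue and genotype had 2 libraries, numbered 1 and 2, and each library held the pooled tissue of 2 mice, so a replicate is a library of pooled mice. The methods give a higher age for these mice than the labels do. The labels call the striatal libraries NAc while the series' design names the striatum, and the word striatum is used below.

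The authors' annotation named 23687 cells, 14690 from striatum and 8997 from PFC, and it was used as deposited. The matrices held 15154268 to 26277553 UMIs (tagged transcript molecules) per library, of which 5999666 to 13521114 lay in annotated cells, with a median of 2302.5 to 3042 UMIs per cell. The 28 pairs of libraries shared 313 cell barcodes in all, against 328 expected from random draws of barcodes, and at most 0.877% of the smaller library's cells. Of the listed markers measured in striatum, 5 of 6 D1 and 4 of 5 D2 medium spiny neuron (MSN) markers were highest in the type of that name (Eya1 was highest in oligodendrocyte progenitors and Sp9 in neuroblasts), as were 5 of 5 excitatory neuron markers in PFC. Of 8 interneuron markers, 6 were highest in interneurons in striatum (Nxph1 was highest in oligodendrocyte progenitors and Pvalb in newly formed oligodendrocytes) and 7 in PFC. Levels below are CPM, the UMIs of a gene summed over the cells of a type and scaled to one common total. Setd1a itself had 8.45 and 11.2 CPM in PFC of WT against 5.59 and 9.33 CPM in Setd1a+/- libraries, which overlapped, and 13.4 and 15.2 against 9.16 and 12.5 CPM in striatum, which did not. It was lower in the Setd1a+/- library than in the WT library of the same number in each of the 4 pairs. These 3' counts also take in transcripts of the frameshift allele, so they do not check the genotype labels.

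In MSNs, dopamine reaches the cAMP pathway through D1 receptors, which raise cAMP, and D2 receptors, which lower it, while the adenosine receptor Adora2a raises it in D2 MSNs. The stimulatory G protein of these cells is built from the alpha subunit Gnal (Golf) with a beta subunit and the gamma subunit Gng7, and it drives the adenylyl cyclase Adcy5. The cAMP made activates protein kinase A, whose substrates include DARPP-32 (the product of Ppp1r1b, an inhibitor of protein phosphatase 1 once phosphorylated), Arpp21 and Arpp19, and the tyrosine phosphatase STEP (Ptpn5), which is inhibited by that phosphorylation. Adcy1 is another cyclase, stimulated by calcium and calmodulin, and is known for its part in cortex and hippocampus.

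The genes lie on 6 chromosomes of the GRCm38 build (GENCODE annotation), with Adcy1 (chr11:7063489-7178506, plus strand) and Ppp1r1b (chr11:98348404-98357796, plus strand) on the same one. Adcy5 lies at chr16:35154877-35305738 (plus), Gng7 at chr10:80948624-81014945 (minus) and Ptpn5 at chr7:47077795-47133684 (minus). Arpp21 (chr9:112065091-112235938, minus) and Arpp19 (chr9:75037614-75060313, plus) share a chromosome, and Gnal lies apart from the others. Another gene or microRNA overlapped Adcy5, Gnal, Gng7, Arpp21 and Ptpn5 on the same strand, and how reads in the overlaps were assigned was not examined.

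The cyclases Adcy5 and Adcy1 had their highest levels in different cell types (below), and the 250 bases before the RefSeq transcription start of each (GRCm38.p6, plus strand) are shown for that reason. Capitals mark the GC box GGGCGG searched on both strands, so that CCGCCC is the same motif read from the other strand.
Adcy5, chr16:35154614-35154863: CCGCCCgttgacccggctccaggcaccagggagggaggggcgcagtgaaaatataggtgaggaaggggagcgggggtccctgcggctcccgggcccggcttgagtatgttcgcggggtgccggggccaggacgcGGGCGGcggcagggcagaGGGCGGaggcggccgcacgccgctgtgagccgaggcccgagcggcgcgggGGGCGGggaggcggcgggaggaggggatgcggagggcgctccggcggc
Adcy1, chr11:7063183-7063432: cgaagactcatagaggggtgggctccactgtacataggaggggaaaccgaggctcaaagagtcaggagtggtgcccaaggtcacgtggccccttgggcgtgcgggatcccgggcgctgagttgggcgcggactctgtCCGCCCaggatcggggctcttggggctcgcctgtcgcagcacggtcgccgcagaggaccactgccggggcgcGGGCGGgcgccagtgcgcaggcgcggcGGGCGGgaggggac
The Adcy5 window held 4 GC boxes, 32 CpG dinucleotides and 78.0% G and C, and the Adcy1 window held 3 GC boxes, 26 CpG and 71.2% G and C. Among all 32851 RefSeq windows of that length, 32.7% held a GC box, with medians of 6 CpG and 52.4% G and C. The letters TGACG, the first letters of the cAMP response element TGACGTCA, were in neither window on either strand, and 17.8% of all windows held them. These matches describe the sequence only.

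The G protein subunits were highest in MSNs. In D1 MSNs the WT libraries held 436 and 405 CPM of Gnal and the Setd1a+/- libraries 441 and 369 CPM. The D2 MSNs held 439.6 and 410.3 CPM (WT) and 459 and 353 CPM (Setd1a+/-). The ranges of the MSN types overlapped, with Setd1a+/- library 2 lowest in each. Striatal interneurons held 142, 139.8, 159 and 80.1 CPM of Gnal (WT 1, WT 2, Setd1a+/- 1, Setd1a+/- 2, the order used below wherever 4 values are given). Gng7 was at 172, 182, 137 and 171 CPM in D1 MSNs and at 205, 245, 210.2 and 210.1 CPM in D2 MSNs, so the D2 values lay above all D1 values. It was only 22.0 to 25.5 CPM in striatal interneurons, 2.80 ± 0.22 lower than in D1 MSNs on the log2 scale (mean and SD over 4 libraries). Types were set by clustering these same cells, so the levels of types are descriptions and were not tested against each other.

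Adcy5 was measured at 339, 329.6, 318 and 359 CPM in D1 MSNs and at 329, 358, 334 and 366 CPM in D2 MSNs, which overlapped almost entirely. Striatal interneurons held 33.3, 60.9, 45.6 and 49.0 CPM of Adcy5, 2.86 ± 0.37 below D1 MSNs on the log2 scale. Adcy1 ran the other way. It was at 9.11, 14.7, 15.0 and 12.1 CPM in D1 and at 13.8, 15.8, 20.3 and 16.1 CPM in D2 MSNs, against 101, 97.9, 108 and 119 CPM in striatal interneurons. Adcy1 was the only one of the 8 genes that was higher in striatal interneurons than in MSNs, by 3.09 ± 0.35 over D1 MSNs on the log2 scale, and it was so in all 4 libraries. MSNs held 29.1, 46.9, 33.9 and 32.2% of the Adcy1 UMIs of annotated striatal cells, against 45.5, 58.7, 30.1 and 67.3% of all UMIs, so their share of Adcy1 was the lower in 3 of 4 libraries. They held 80.5 to 92.4% of the Adcy5 UMIs.

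Of the protein kinase A substrates, Ppp1r1b was at 1122, 1597, 1087 and 1200.5 CPM in D1 MSNs and at 1277, 1853, 1313 and 1249.8 CPM in D2 MSNs. WT library 2 was the highest in both types, and the other 3 libraries lay within 1087 to 1313 CPM. Arpp21, whose product binds calmodulin when phosphorylated, was at 2998, 3199, 3102 and 2866 CPM in D1 and at 3587, 3779, 4009 and 3260.1 CPM in D2 MSNs, with no overlap between the types. Arpp19, whose product inhibits protein phosphatase 2A when phosphorylated by the kinase Greatwall, was at 1156, 1333, 1114 and 1501 CPM in D1 and at 1937, 2368, 1931 and 2345 CPM in D2 MSNs, also without overlap. Ptpn5, whose phosphatase acts on ERK kinases, Fyn and glutamate receptor subunits, was at 462, 469, 419 and 421 CPM in D1 and at 578, 578, 669.5 and 503 CPM in D2 MSNs, again without overlap. Relative to striatal interneurons, D1 MSNs were higher by 4.12 ± 0.28 for Ppp1r1b, 2.96 ± 0.23 for Arpp21, 2.16 ± 0.21 for Ptpn5 and 1.48 ± 0.12 for Arpp19 on the log2 scale.

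**Figure D1:**
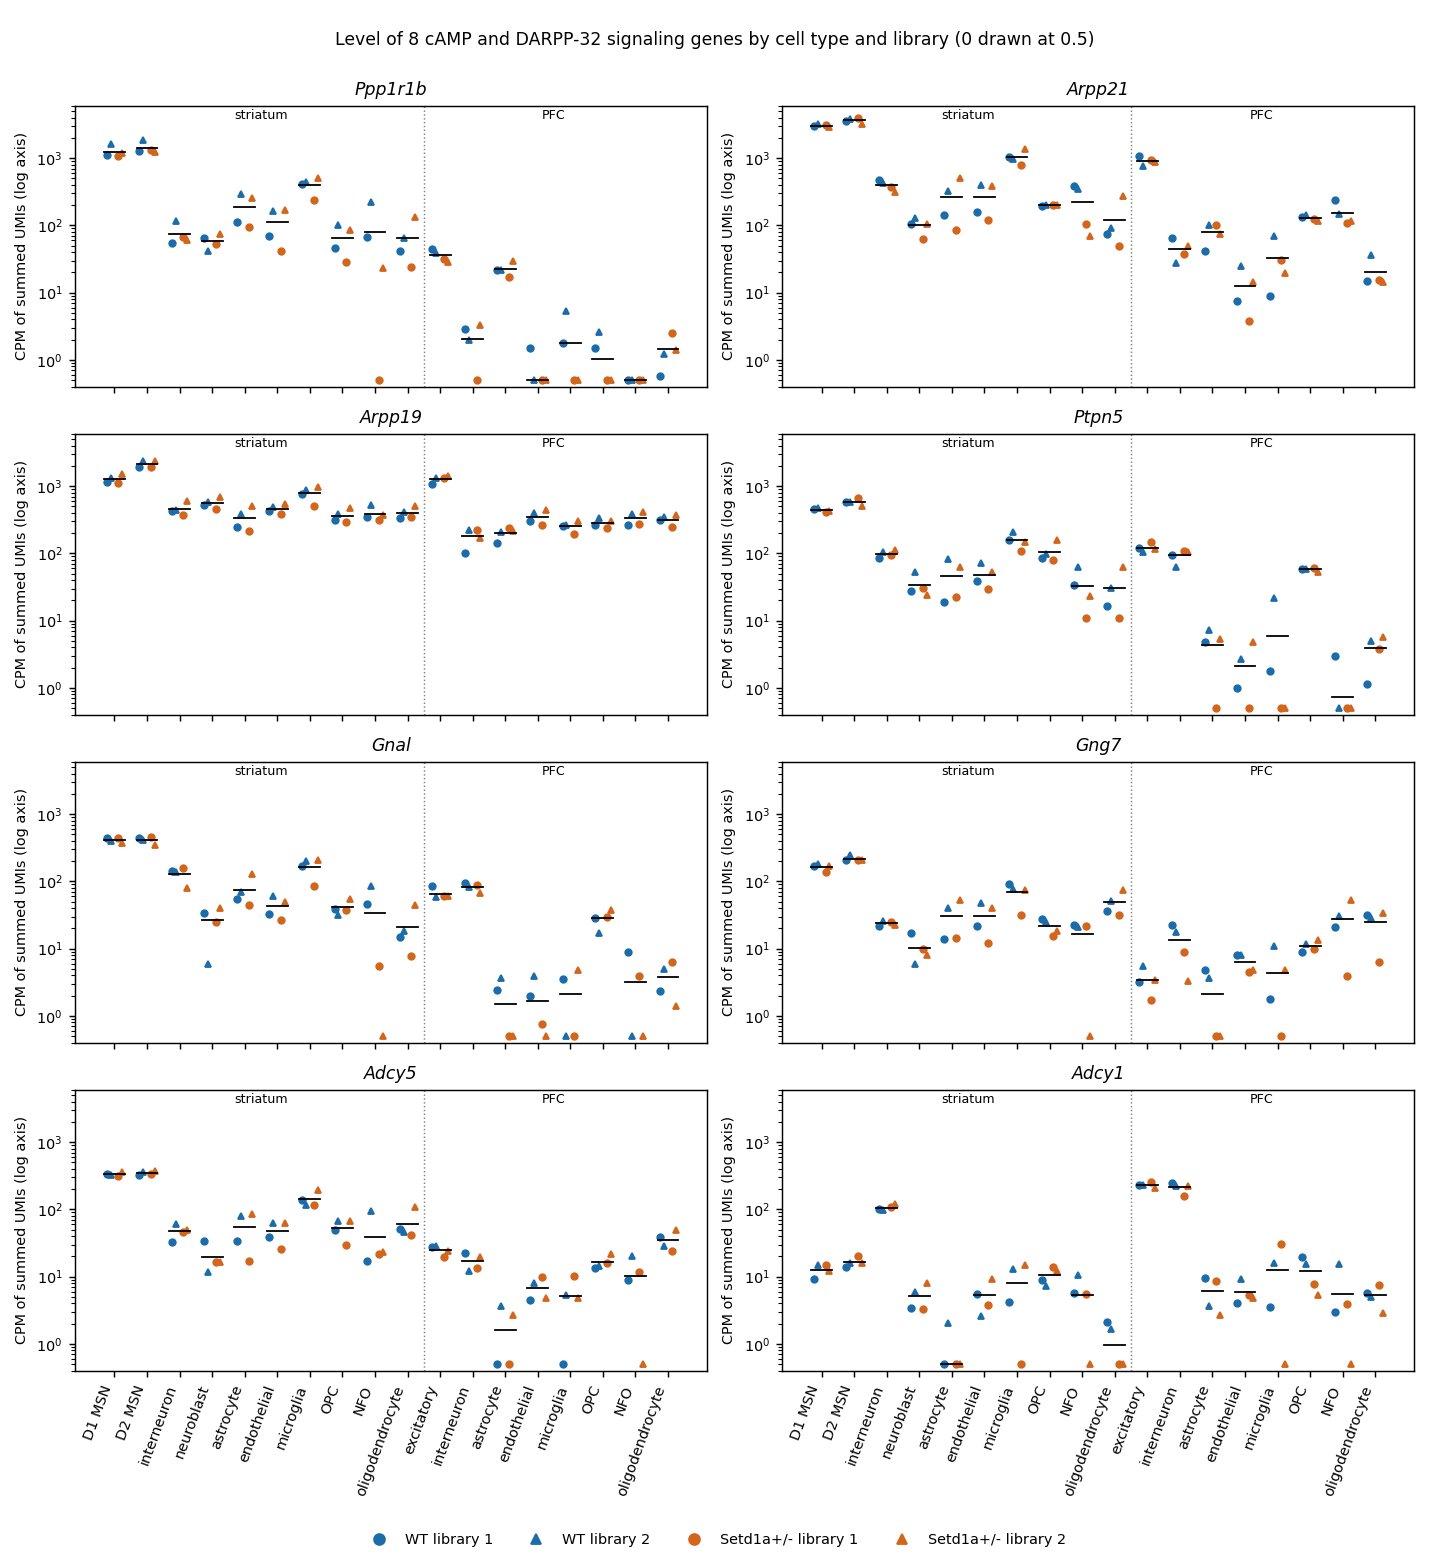
Level of each gene (CPM of the UMIs summed over the cells of a type, log axis, 0 drawn at 0.5) in 10 striatal and 8 PFC cell types, with circles for library 1 and triangles for library 2, blue for WT and orange for Setd1a+/-, and a bar at the mean of 4 libraries. For 7 genes the 2 MSN types are the highest striatal types, whereas Adcy1 is highest in striatal interneurons (mean 106 CPM) and in PFC excitatory neurons (mean 230.0 CPM) and interneurons (mean 212 CPM).

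Counted per cell, 77.5 to 89.1% of D1 MSNs and 92.2 to 98.9% of D2 MSNs held a Ppp1r1b UMI in a library, and 52.0 to 60.8% of D1 MSNs held an Adcy5 UMI, against 9.08 to 20.9% of striatal oligodendrocytes. These oligodendrocytes held a Ppp1r1b UMI in 5.49 to 14.9% of cells, at a median depth of 2035 to 2124 UMIs against 2657 to 3664 in D1 MSNs. After every cell was thinned to 1000 UMIs, which left out no cell, the share with a Ppp1r1b UMI was 48.4 to 71.3% of D1 MSNs, 63.9 to 79.7% of D2 MSNs and 2.32 to 6.23% of oligodendrocytes. At least 5 of the 8 genes were seen in 60.7 to 73.3% of D1 and 75.3 to 91.8% of D2 MSNs before thinning, and in 12.3 to 17.6% and 23.5 to 28.2% after it.

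D2 MSNs held more of 6 of the 8 genes than D1 MSNs in 4 of 4 libraries. The mean differences of D2 over D1 on the log2 scale were 0.75 ± 0.08 for Arpp19 (1.69-fold), 0.40 ± 0.16 for Gng7, 0.39 ± 0.19 for Ptpn5, 0.39 ± 0.20 for Adcy1, 0.26 ± 0.08 for Arpp21 and 0.18 ± 0.09 for Ppp1r1b (SD over 4 libraries). The cyclase Adcy5 (0.04 ± 0.07) and the alpha subunit Gnal (0.01 ± 0.05), which were higher in D2 MSNs in 3 of 4 libraries, differed by less than their spread. Among 8501 genes of at least 10 CPM in either type, 8.38% were higher in D2 MSNs in 4 of 4 libraries and 22.2% were higher in D1 MSNs. Ranges without overlap and with D2 above were seen for 4 of the 8 genes (Arpp19, Gng7, Ptpn5 and Arpp21), and for 1.79% of the 8501, with D1 above for 6.18%. The median difference was 0.33 over the 8 genes and -0.07 over the 8496 of those genes that were above 0 in every library. With cells thinned to 1000 UMIs, all 8 differences kept their direction, and those of 6 genes grew by more than 1 SD, to 0.90 for Arpp19 and 0.64 for Adcy1.

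**Figure D2:**
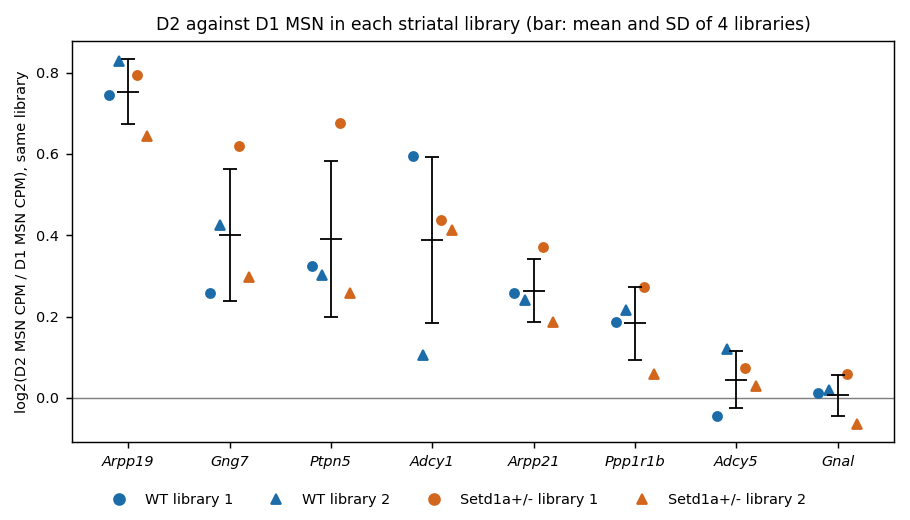
Difference between D2 and D1 MSNs for each gene within each striatal library (log2 of the ratio of CPM; circles for library 1, triangles for library 2, blue for WT, orange for Setd1a+/-), with the mean and SD of 4 libraries in black. Arpp19 stands highest at a mean of 0.75, and the points of Adcy5 and Gnal lie on both sides of 0.

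RNA outside cells was read from the barcodes of at most 100 UMIs in the same libraries. In striatum these droplets held 805 to 1396 CPM of Ppp1r1b, 1420 to 1745 CPM of Arpp21 and 435 to 551 CPM of Adcy5. D1 MSNs were at 172 to 218% of the droplet level for Arpp21 and at 114 to 135% for Ppp1r1b. Adcy5 was lower in the neurons than in the droplets, D1 MSNs being at 60.6 to 76.6% and D2 MSNs at 65.9 to 76.9% of the droplet level. Gng7 was below it in D1 MSNs (79.1 to 92.7%) and above it in D2 MSNs (103 to 121%). Adcy1 was at 33.5 to 78.9% in D1 and 44.5 to 107% in D2 MSNs, so its difference between these types, given above, lies mostly under the free-RNA level, while in interneurons it was at 328 to 571%. The levels of non-MSN cells are therefore given as a percentage of the droplet level, beside those of Penk and Tac1, 2 genes that mark MSNs.

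Arpp19 was above both of these MSN genes on this scale in 4 of 4 libraries in each of the 8 striatal types other than MSNs. In oligodendrocytes it was at 30.3 to 40.4% of the droplet level, Gng7 at 18.6 to 37.1% and Adcy5 at 8.56 to 19.4%, whereas Ppp1r1b was at 3.03 to 13.2%, Penk at 3.42 to 16.6% and Tac1 at 4.21 to 16.0%. Gng7 and Adcy5 stood above both MSN genes in 4 of 4 libraries there. Setd1a+/- library 2, with only 67 oligodendrocytes, was the highest for 7 of the 8 genes (Adcy1 had no UMI there) and for both MSN genes. Ptpn5 was at 21.8 to 37.2% in oligodendrocyte progenitors (OPCs), again above both MSN genes in 4 of 4 libraries (Penk 2.71 to 7.20%, Tac1 10.7 to 13.0%). In striatal microglia the MSN genes were themselves at 29.3 to 57.2% (Penk) and 42.5 to 52.0% (Tac1). Arpp19 (51.8 to 78.0%) and Arpp21 (55.5 to 92.1%) were above both in 4 of 4 libraries there, and Ppp1r1b (29.4 to 50.5%) in 1 of 4. Whether these UMIs were made in the glial cells was not tested.

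**Figure D3:**
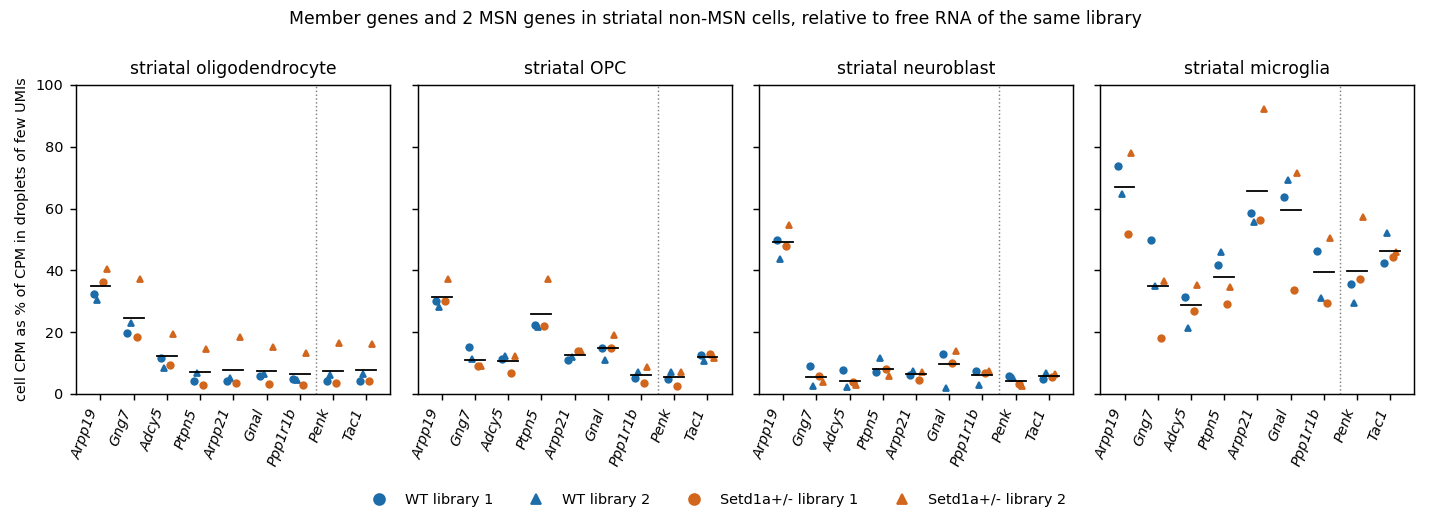
Level of 7 members and, right of the dotted line, of the MSN genes Penk and Tac1 in 4 striatal cell types, as a percentage of the CPM in droplets of at most 100 UMIs of the same library (circles for library 1, triangles for library 2, blue for WT, orange for Setd1a+/-, bar at the mean). Arpp19 and Gng7 in oligodendrocytes, Ptpn5 and Gnal in OPCs and Arpp19 in neuroblasts are among those that stand above both MSN genes, and in microglia all genes are high.

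In PFC the order of types was different. Adcy1 was at 228, 233, 252 and 207 CPM in excitatory neurons and at 243, 219, 159.8 and 225 CPM in interneurons, which overlapped, and at most 30.4 CPM in any library of a glial or endothelial type. Arpp19 was at 1068, 1322, 1329 and 1399 CPM in excitatory neurons, overlapping with D1 MSNs, and Arpp21 was at 1071, 768, 938 and 869 CPM. PFC interneurons, in contrast, held 103, 219, 222 and 169 CPM of Arpp19 and 65.7, 27.9, 37.7 and 49.6 CPM of Arpp21, the latter lower than in excitatory neurons by 4.39 ± 0.37 on the log2 scale. Ptpn5 was at 118, 103, 146 and 118 CPM in excitatory neurons, and Gnal at 84.5, 58.6, 60.5 and 60.2 CPM, both overlapping with interneurons (63.7 to 109 and 66.2 to 94.3 CPM). Within libraries Ptpn5 was higher in excitatory neurons than in interneurons in 4 of 4 (0.40 ± 0.23 on the log2 scale), and Gnal was lower in 4 of 4 (-0.33 ± 0.21).

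The other members were sparse in PFC neurons. Ppp1r1b had 44.0, 39.0, 31.9 and 28.9 CPM in excitatory neurons and 1 UMI at most in any library of interneurons. Gng7 had 3.18, 5.57, 1.71 and 3.41 CPM in excitatory neurons and 31.9, 28.3, 6.37 and 34.3 CPM in oligodendrocytes, which were 7.27-fold higher in the mean and higher in 4 of 4 libraries. Its highest PFC mean was that of newly formed oligodendrocytes (27.3 CPM), with overlap. Adcy5 was also higher in oligodendrocytes (38.3, 28.3, 24.2 and 50.0 CPM) than in excitatory neurons (27.6, 28.3, 19.5 and 24.4 CPM) in 4 of 4 libraries. In WT library 2 the difference was smaller than the printed digits. The ranges overlapped and the mean ratio was 1.41. PFC droplets held 21.1 to 29.0 CPM of Adcy5 and 6.10 to 13.8 CPM of Gng7. In the same oligodendrocytes Arpp21 was 45.4-fold and Ptpn5 31.1-fold lower than in excitatory neurons. Gng7 was thus higher in PFC oligodendrocytes than in excitatory neurons, while Arpp21 and Ptpn5 were lower. Adcy5 was higher in the mean, with overlapping ranges.

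The excitatory neurons of PFC were divided by the authors into 7 subtypes, named by cortical depth (SL, superficial layer; DL, deep layer) and a marker gene. Ppp1r1b was highest in DL-Foxp2 neurons at 132, 116, 93.7 and 193 CPM, above every library of the other 6 subtypes, where the next highest mean was 21.1 CPM (SL-Myh7). Adcy1 was also highest in DL-Foxp2 at 417, 392, 446 and 431 CPM, above all libraries of DL-Etv1, the next (228 to 282 CPM), and 0.71 ± 0.11 higher on the log2 scale. Arpp21 went the other way, with 663, 487, 501 and 442 CPM in DL-Foxp2 against 2008, 1228, 1678 and 1138 CPM in SL-Cux2 and 1594, 1584, 1732 and 1507 CPM in SL-Myh7 neurons. DL-Foxp2 was above SL-Cux2 by 3.34 ± 0.64 for Ppp1r1b and 1.69 ± 0.13 for Adcy1, and below it by a difference of -1.51 ± 0.19 for Arpp21 and -0.97 ± 0.24 for Ptpn5, on the log2 scale.

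Gnal was highest in SL-Myh7 neurons at 129, 119, 108 and 157 CPM and overlapped with DL-Nnat (77.5 to 133 CPM). Arpp19 was at 1061 to 1703 CPM in the libraries of 5 subtypes and 738 to 1064 CPM in DL-Pou3f1, but at 194 to 328 CPM in DL-Tshz2, which was also lowest in Arpp21 (273 to 384 CPM) and Adcy1 (26.4 to 65.6 CPM). DL-Pou3f1 rests on 62 cells, 7 to 35 per library, and its Adcy5 level of 33.9 to 67.1 CPM on 3 to 7 UMIs per library. Gng7 was at most 9 UMIs in any library of a subtype.

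**Figure D4:**
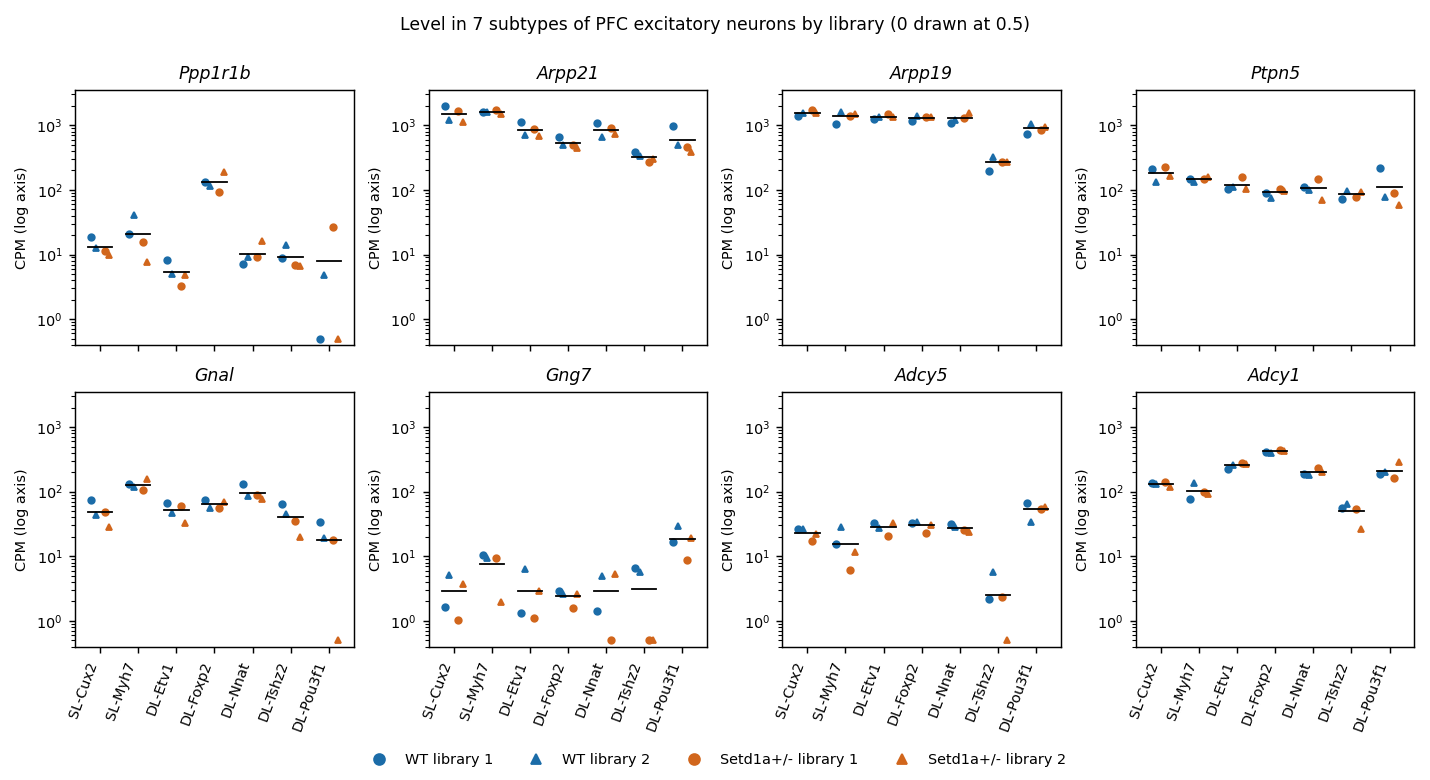
Level of each gene (CPM, log axis, 0 drawn at 0.5) in the 7 subtypes of PFC excitatory neurons, 2 superficial and 5 deep, with circles for library 1, triangles for library 2, blue for WT, orange for Setd1a+/- and a bar at the mean of 4 libraries. Ppp1r1b and Adcy1 peak in DL-Foxp2 (means 134 and 422 CPM), and Arpp21 peaks in the 2 superficial subtypes (means 1513 and 1605 CPM).

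For the cell types found in both tissues, the striatal and PFC libraries were compared with edgeR's quasi-likelihood test over all genes, 4 libraries against 4, with genotype as a covariate. A gene was called at a Benjamini-Hochberg adjusted p under 0.05 and a fold above 2. Of 56 possible tests of the 8 genes 40 passed the filter on low counts, and 23 were called, all higher in striatum, where 3.35% of 42759 tests of all genes were called higher and 1.49% lower. A gene that passes the filter through its striatal libraries alone has to differ, so this count describes the genes tested. Dissection and a longer papain digestion for striatum go with tissue and cannot be told apart from it.

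Interneurons were the neuronal type found in both tissues, and all 8 genes were tested there. Arpp21 was higher in striatal interneurons by 3.19 on the log2 scale (SE 0.22, edgeR adjusted p 2.33e-07), at 311 to 468 CPM against 27.9 to 65.7 CPM. Arpp19 was higher by 1.38 (SE 0.22, adjusted p 0.00053, edgeR), at 374 to 591 against 103 to 222 CPM. Adcy5 was higher by 1.55 (SE 0.32, edgeR adjusted p 0.00386). Ppp1r1b was also called, at 53.8 to 118 CPM against at most 1 UMI in any PFC library; it passed the filter through striatum alone and had to differ, so its fold is not given. With only the libraries numbered 1, the adjusted p of Adcy5 was 0.0793. These 4 calls stand beside 4.31% of 7419 genes called higher in striatal interneurons.

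The levels were set beside the droplets here too. In striatal interneurons Arpp21 (21.1 to 26.8% of the droplet level), Arpp19 (33.1 to 46.8%), Gnal (27.4 to 63.3%) and Ptpn5 (22.3 to 25.8%) were above Penk (4.98 to 9.34%) and Tac1 (7.32 to 11.8%) in 4 of 4 libraries. Ppp1r1b (6.10 to 8.43%) was above both in no library and Adcy5 (7.53 to 11.2%) in 2 of 4. The summed level of 5 MSN markers in interneurons was 389 to 511 CPM in striatum and 297 to 357 CPM in PFC. As the sum was high in PFC too, it does not measure MSN RNA alone. The part of RNA from MSNs in the 4 calls was not tested. Adcy1 was lower in striatal than in PFC interneurons by a log2 difference of -0.96 (SE 0.17, edgeR adjusted p 0.00166), under the fold cutoff, where 3.52% of genes were called lower. Its fold passed the cutoff without Setd1a+/- library 1 of PFC (-1.12), without Setd1a+/- library 2 of striatum (-1.02) and with thinned cells (-1.35). Gnal (0.67, SE 0.22), Gng7 (0.82, SE 0.36) and Ptpn5 (0.15, SE 0.18) were not called.

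Outside neurons the number called differed between types. In microglia all 6 members tested were called higher in striatum, beside 11.3% of genes called higher and 5.21% lower. Arpp19 was higher by 1.46 on the log2 scale (SE 0.27). Ppp1r1b was at 237 to 508 CPM in striatal microglia against at most 1 UMI in any PFC library, and Ptpn5, Adcy5, Gnal and Arpp21 had at most 4, 1, 2 and 13 UMIs in a PFC library. Folds between tissues are not given for called genes where some PFC library held 3 UMIs or fewer. Genes with at most 4 UMIs in every PFC library passed the filter through striatum. Their higher level in striatum was thus set in advance, though not whether they were called. Their calls, here and in the types below, only describe the genes tested. The summed level of 5 MSN markers (Rgs9, Pde10a, Foxp1, Meis2 and Bcl11b) in microglia was 727 to 920 CPM in striatum and 48.8 to 243 CPM in PFC. The sum was also high in some PFC types (359 to 441 CPM in endothelial cells), so it does not measure MSN RNA alone. In endothelial cells 6 of 7 were called, beside 4.25%: Arpp21 (at 122 to 393 against 3.76 to 25.2 CPM), Adcy5 (25.9 to 63.7 against 4.51 to 9.77 CPM), Gng7 (12.1 to 47.4 against 4.51 to 8.01 CPM), and Ppp1r1b, Ptpn5 and Gnal, which had at most 3, 2 and 4 UMIs in any PFC library. There the MSN markers summed to 505 to 670.1 against 359 to 441 CPM. In oligodendrocytes Arpp21 (2.31, SE 0.49), Ppp1r1b (24.4 to 132 CPM against at most 2 UMIs in a PFC library) and Ptpn5 (11.1 to 62.9 CPM against at most 4 UMIs) were called, beside 0.94%, whereas Adcy5 (0.62, SE 0.29) and Gng7 (0.77, SE 0.36) were not. In OPCs only Ppp1r1b was called (28.3 to 101 CPM against at most 2 UMIs in a PFC library, beside 0.105% of genes), and Ptpn5 was not (0.77, SE 0.22, edgeR adjusted p 0.164). In astrocytes Gnal (45.1 to 127 CPM against at most 1 UMI in a PFC library), Ppp1r1b (95.7 to 298 against 17.1 to 29.8 CPM) and Arpp21 (1.53, SE 0.47) were called of 4 tested, beside 5.62% higher and 2.50% lower, and in newly formed oligodendrocytes (NFOs) neither of the 2 tested was, beside 0.0332% higher and 0.0332% lower. Some of these calls were lost when 1 library was left out: Gng7 in endothelial cells without striatal WT library 2 (edgeR adjusted p 0.0665) or PFC WT library 1 (0.0703), Ptpn5 in oligodendrocytes without PFC WT library 1 (0.172) or Setd1a+/- library 1 (0.0569), Arpp21 in oligodendrocytes without any of 4 libraries (2.11 to 2.53, 0.0516 to 0.107) and Arpp21 in astrocytes without any of 5 (1.05 to 1.58, 0.0730 to 0.171). The call of Adcy5 in OPCs (1.69, SE 0.33, edgeR adjusted p 0.0542) was gained without any of 4. MSNs were 68.0% of the annotated cells of striatal Setd1a+/- library 2, against 24.2 to 50.5% in the other striatal libraries. A smaller share of its cells was thus left for the types above. The MSN-marker sums were higher in every striatal library than in every PFC library in each of these types, and their part in the calls was not tested.

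The last question was whether loss of 1 Setd1a allele changed the genes. Of the 192 possible tests over 24 cell types and subtypes 128 passed the filter, and edgeR called none of them at an adjusted p under 0.05 with a fold above 2 in striatum or 1.5 in PFC. Over all genes 4 of 169407 tests were called (0.00236%), all in D2 MSNs (4 of 10081, 0.0397%). At an unadjusted p under 0.05 there were 2 of the 128 (1.56%), beside 2.07% of all tests, and DESeq2 called none of them. Estimates were lower in Setd1a+/- in 76 of the tests and higher in 52, with a median of -0.04 on the log2 scale. Since some tests share cells, the counts are descriptions. These fits left out the pairing of libraries by number. With that number as a block, Arpp21 in striatal NFOs was called (below).

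In D1 MSNs, D2 MSNs and PFC excitatory neurons no difference of any member was called. In D1 MSNs the log2 fold change of Setd1a+/- over WT was -0.21 for Ppp1r1b (SE 0.20), -0.01 for Arpp21 (SE 0.15), 0.12 for Arpp19 (SE 0.19) and 0.06 for Adcy5 (SE 0.14). In D2 MSNs the same genes gave -0.25 (SE 0.20), 0.02 (SE 0.17), 0.04 (SE 0.19) and 0.08 (SE 0.16). The Ppp1r1b estimates rest on WT library 2, without which they were 0.08 in D1 and 0.06 in D2 MSNs. Ranges of the genotypes did not overlap for Ptpn5 and Gng7 in D1 MSNs, both lower in Setd1a+/- libraries, as for 19.4% of genes of at least 10 CPM (10.2% higher), and for Adcy1 in D2 MSNs, higher in Setd1a+/- libraries, as for 10.8% (20% lower). The difference of the genotype effect between D2 and D1 MSNs lay between -0.07 and 0.14 for the 8 genes, and none was called (0.0364% of 10989 genes) or had an unadjusted p under 0.05 (4.47% of genes).

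In PFC excitatory neurons Ppp1r1b was lower in both Setd1a+/- libraries (31.9 and 28.9 CPM) than in both WT libraries (44.0 and 39.0 CPM), a log2 fold change of -0.43 (SE 0.18, edgeR adjusted p 1.00). The groups did not overlap, which held with Setd1a+/- lower for 11.3% of genes of at least 10 CPM and with Setd1a+/- higher for 11%. Adcy5 was likewise lower without overlap (log2 fold change -0.34, SE 0.23), and Arpp19 was higher without overlap (0.20, SE 0.23). With 1 library left out, Adcy5 ran from -0.56 (without Setd1a+/- library 2) to -0.15 (without Setd1a+/- library 1) and Arpp19 from 0.00028 (without WT library 1) to 0.43 (without WT library 2). In DL-Foxp2 neurons, where Ppp1r1b was highest, the groups overlapped (132 and 116 against 93.7 and 193 CPM). The make-up of the excitatory class also differed between libraries. DL-Foxp2 neurons were 121 of 410 and 351 of 1189 cells in WT libraries and 202 of 692 and 69 of 484 in Setd1a+/- libraries. Their share was lowest in Setd1a+/- library 2. That library was the highest for Ppp1r1b within DL-Foxp2 and the lowest over the class. The part of this make-up in the pooled estimates was not tested. In that subtype Adcy5 was lower and Adcy1 and Ptpn5 were higher in Setd1a+/- libraries without overlap, as were 12.8% and 14.9% of genes, and none of the 3 was called. Gng7, also lower without overlap, had 1 to 5 UMIs per library there and was not tested. The other 7 estimates in excitatory neurons ran from -0.84 (SE 0.56) for Gng7 to 0.27 (SE 0.18) for Ptpn5. That of Gng7, a sparse gene in these cells, was -1.43 without Setd1a+/- library 2, -0.37 without Setd1a+/- library 1 and -0.26 without WT library 2.

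**Figure D5:**
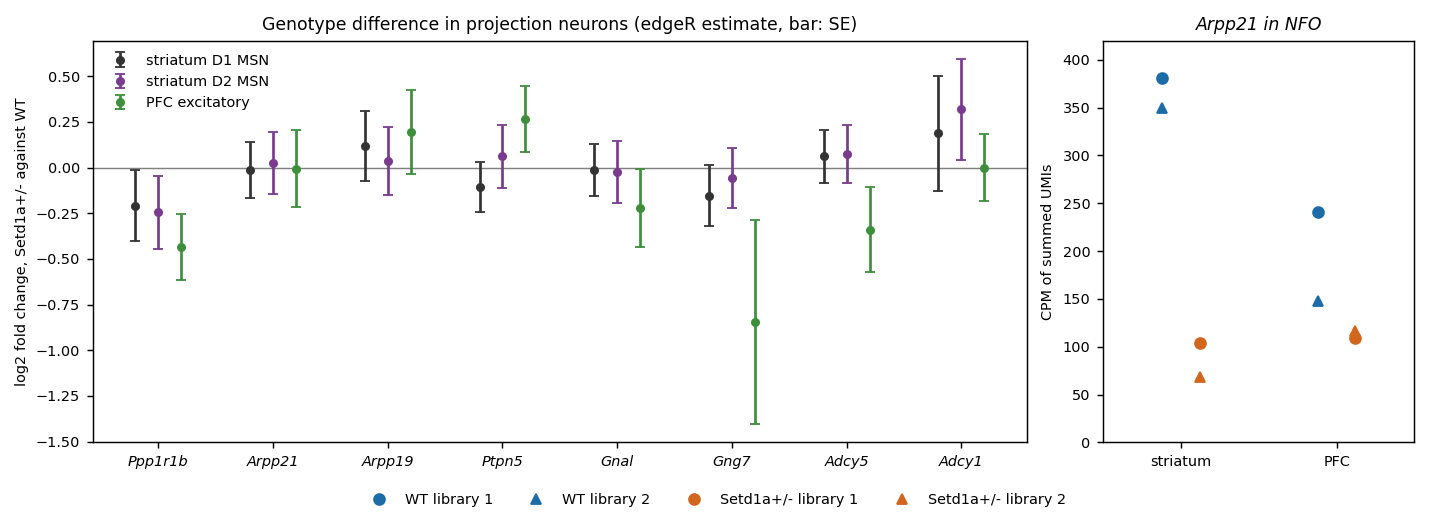
Left, log2 fold change of Setd1a+/- over WT with its SE (edgeR) for each gene in D1 MSNs, D2 MSNs and PFC excitatory neurons, 2 libraries against 2; right, Arpp21 in NFOs of each tissue (CPM of summed UMIs, axis from 0), with circles for library 1, triangles for library 2, blue for WT and orange for Setd1a+/-. On the left no gene was called; on the right the striatal Setd1a+/- libraries stand at 104 and 68.8 CPM under WT libraries at 381 and 349 CPM.

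Among the tests that passed the filter on low counts, the largest estimate was that of Arpp21 in NFOs, cells on the way from progenitor to myelinating oligodendrocyte. The WT libraries of striatum held 381 and 349 CPM of Arpp21 and the Setd1a+/- libraries 104 and 68.8 CPM, on 67, 33, 19 and 3 UMIs from 22 to 58 cells. In PFC the NFOs held 241 and 148 CPM (WT) and 109 and 117 CPM (Setd1a+/-), on 81, 29, 28 and 13 UMIs. Setd1a+/- was below WT without overlap in both tissues, as it was for 3.08% of the 9768 genes compared (20.8% in striatum and 16.8% in PFC alone). The log2 fold change was -1.91 in striatum (SE 0.34, edgeR adjusted p 0.236) and -0.81 in PFC (SE 0.36, edgeR adjusted p 1.00), so neither was called. The PFC estimate was -0.43 without WT library 1 and -1.07 without WT library 2. An unadjusted p under 0.05 was given to 4.12% of genes in striatal and 2.08% in PFC NFOs, and DESeq2 gave an adjusted p of 0.999 in striatum. With the replicate number as a block the striatal edgeR adjusted p was 0.0264. The striatal estimate was -1.78 without WT library 1 and -1.98 without WT library 2, and Arpp21 was called in both fits. It was not called when a Setd1a+/- library was left out. The striatal estimates with 1 library left out ran from -2.37 to -1.76. Each of these fits holds 1 library of a genotype, which is assumed to vary like the others. A fit of all 8 libraries, chosen after seeing these values, gave -1.30 (SE 0.28, edgeR adjusted p 0.580), and 0.106 with the block.

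The striatal NFO libraries also differed in MSN genes. The 5 MSN markers summed to 182 and 402 CPM (WT) and 65.6 and 207 CPM (Setd1a+/-), and Ppp1r1b was at 68.2 and 222 against 0 and 22.9 CPM. NFOs holding any UMI of Penk or Tac1 were 16 of 58, 7 of 32, 11 of 53 and 11 of 22. Without these cells Arpp21 had 215 and 180 CPM (WT) and 106 and 45.2 CPM (Setd1a+/-), on 26, 12, 15 and 1 UMIs. In PFC, where Ppp1r1b had no UMI in NFOs, leaving out cells with an excitatory neuron marker gave 235 and 158 against 107 and 115 CPM. Leaving out these cells does not remove free RNA, and the part of MSN RNA in the striatal difference was not tested.

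Around the 8 genes, 7 lists of pathway partners were counted in the same fits. No gene of any list was called between the genotypes. Between tissues the 23 other G protein subunits gave 9 calls higher and 1 lower in striatum of 105 tests, the 14 kinases, phosphatases and targets of DARPP-32 gave 10 and 0 of 82, the 9 partners of Arpp19 gave 4 and 0 of 41, the 9 STEP substrates and relatives gave 8 and 1 of 41, the 9 subunits and inhibitors of protein kinase A gave 3 and 0 of 41, the 3 receptors gave 2 and 0 of 2, and the 8 other adenylyl cyclases gave 0 of 6. Over all genes 3.35% of tests were called higher and 1.49% lower, and the share called higher ran from 0.0332% in NFOs to 11.3% in microglia. In interneurons the calls were Ptk2b (76.4 to 108 against 6.62 to 12.0 CPM), a tyrosine kinase that STEP acts on, Drd1 (15.1 to 39.5 against 6.62 to 15.9 CPM), Ppp1r9b (1.35, SE 0.26), the spinophilin that anchors protein phosphatase 1, and Gnaz (1.29, SE 0.22), an inhibitory alpha subunit. The other calls fell in microglia, endothelial cells and astrocytes, among them Gnb5 (103 to 209 against 5.32 to 27.0 CPM) in microglia and Ppp1r1a (8.26 to 45.5 CPM against at most 3 UMIs in a PFC library) in endothelial cells; the 2 lower in striatum were Gngt2 in microglia (-1.13, SE 0.29) and Gria2 in astrocytes (-1.16, SE 0.21). For the cyclases, where none was called, the highest in MSNs were Adcy3 (31.0 CPM over both types), Adcy9 (17.6 CPM) and Adcy2 (7.22 CPM).

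To see which genes share a member's pattern, Pearson correlations of log2(CPM + 1) were taken over the 18 cell types of both tissues, among 13342 genes of at least 10 CPM in some type; they describe levels that share libraries and droplet RNA. Ppp1r1b was like Scn4b (0.95) and Strip2 (0.94), Adcy5 like Rem2 (0.91) and Gng7 (0.91), and Arpp21 like Zfyve28 (0.92), Car12 (0.91) and Kcnip2 (0.91). Gnal and Ptpn5 were most like one another after Cacna2d3 for Gnal (0.98), at 0.96, and Celf3 and Syt6 were at 0.96 with Ptpn5. Gng7 was most like Adcy5 (0.91), Serpina9 (0.87) and Mhrt (0.85), and Arpp19 like Rgs14 (0.92), Gm38413 (0.91) and Spink8 (0.91). Adcy1 was like Zmat4 (0.95) and Vsnl1 (0.93), and was at -0.21 with Gng7, -0.09 with Ppp1r1b, -0.02 with Adcy5, 0.17 with Arpp19, 0.18 with Arpp21, 0.32 with Gnal and 0.37 with Ptpn5.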

How the data were processed

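Gene by barcode UMI counts were deposited by the authors for 8 libraries, made with 10x Chromium and, per the labels, Cell Ranger 3.0.2 and the mm10 build; the authors removed cells under 800 genes or over 10 percent mitochondrial UMIs and named clusters in Seurat 3.2.0. No doublet caller is described and none was run here. Deposited normalized tables were not used, since they number their genes without naming them. The members and the gene lists were chosen with earlier results of these data known. Levels are CPM of UMIs summed over annotated cells per library and type. Named genes are the 8 members, and list genes where called or else the 3 highest in MSNs. Some genes that the lists or the correlations would name are not reported here.

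Tests were edgeR 4.0.16 quasi-likelihood fits across all genes in R 4.3.3 (TMM, filterByExpr with a minimum count of 10, types with at least 10 cells in every library, Benjamini-Hochberg adjustment within a fit). The fits were checked on simulated counts with changes above the fold cutoffs, a common dispersion and no deviation shared by libraries of the same number. That check does not show whether smaller differences would be found. DESeq2 1.42.0, library size alone, no filter, a replicate block, thinned cells and each library left out were the alternatives; the fits of both tissues together and within libraries of 1 number were added after seeing the data. DL-Pou3f1 had too few cells to be tested. The methods place 1 WT and 1 mutant sample in each biological replicate. Deviations of same-numbered libraries correlated (0.564 over all striatal cells, 0.395 in D1 and 0.353 in D2 MSNs, 0.471 over all PFC cells, 0.599 in excitatory neurons). The numbers were therefore taken to pair the libraries, but only in the replicate block, an alternative. The main genotype fits held no such block and left this pairing out. With 2 libraries per group, p-values measure the spread between pools of 2 mice. Gene positions matched for 30934 of 31053 IDs, and 6 of the 8 genes had a RefSeq promoter entry.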

Additional observations from a re-analysis of the deposited data

How the results depend on the processing

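The count of members called between genotypes in striatal types was 0, and it was 2 without a filter on low counts, 1 with the replicate block and 1 to 3 with 1 library left out. Arpp21 in NFOs was called without the filter, with the block and without WT library 1 or 2. The other calls were Ppp1r1b in NFOs without the filter (on 12 and 21 UMIs in WT against 0 and 1 in Setd1a+/- libraries, too few for a fold), Gng7 (-1.46), Arpp21 (-1.14) and Ppp1r1b (-1.45) in endothelial cells without Setd1a+/- library 2, and Arpp21 in oligodendrocytes without Setd1a+/- library 1 (1.68). In PFC types and subtypes the count was 0 under every alternative run. Between tissues 23 calls became 12 of 28 tests with cells thinned to 1000 UMIs, where fewer genes passed the filter; they were 24 with the replicate block, 24 with DESeq2, 22 and 30 within libraries numbered 1 and 2, and 19 to 27 with 1 library left out. Arpp21 in astrocytes fell short when thinned and without any of 5 libraries (lowest adjusted p 0.0730, without Setd1a+/- library 1 of PFC), Arpp21 in oligodendrocytes when thinned and without any of 4 (0.0516, the same library), Gng7 in endothelial cells without WT library 2 of striatum (0.0665) or WT library 1 of PFC (0.0703) and Ptpn5 in oligodendrocytes without Setd1a+/- library 1 (0.0569) or WT library 1 of PFC (0.172). Adcy5 in OPCs passed with DESeq2, the replicate block or no filter. The block changed no other member's call.

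None of the genotype estimates in neurons was called, and those that changed sign when 1 library was left out had these log2 ranges: for D1 MSNs, Ppp1r1b -0.45 to 0.078, Adcy5 -0.063 to 0.17, Adcy1 -0.097 to 0.61, Gnal -0.12 to 0.079, Gng7 -0.36 to 0.021, Arpp21 -0.072 to 0.042 and Arpp19 -0.15 to 0.34. The ranges were, for D2 MSNs, Ppp1r1b -0.50 to 0.059, Adcy5 -0.020 to 0.16, Gnal -0.19 to 0.13, Gng7 -0.19 to 0.088, Arpp21 -0.10 to 0.14, Arpp19 -0.14 to 0.20 and Ptpn5 -0.13 to 0.23. They were, for PFC excitatory neurons, Adcy1 -0.11 to 0.097 and Arpp21 -0.17 to 0.19. Finally, for the difference of the effect between D2 and D1 MSNs, Ppp1r1b -0.14 to 0.068, Adcy5 -0.070 to 0.091, Adcy1 -0.17 to 0.32, Gnal -0.077 to 0.041, Gng7 -0.056 to 0.26, Arpp21 -0.061 to 0.12, Arpp19 -0.14 to 0.0016 and Ptpn5 -0.052 to 0.36 were the ranges. The sign also changed for Arpp21 (-0.020) and Arpp19 (-0.0093) in D2 MSNs with scaling by library size alone, for Arpp21 in excitatory neurons with the replicate block (0.0053), and for the tissue difference of Arpp19 and Arpp21 in NFOs with thinned cells (-0.20 each). The cause was not tested. Depth limits the NFO values, with 3 Arpp21 UMIs in 1 striatal library.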
